A study of Mus musculus with 15 samples.

Results

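A set of 10 genes of Toll-like receptor and NF-kB signalling were followed in ageing mouse muscle: the receptors Tlr2, Tlr3 and Tlr4, the co-receptor Cd14, the adaptor Myd88, the transcription factor subunits Rela, Relb and Nfkb2, and the inhibitors Nfkbia and Tnfaip3. They were picked by symbol, with earlier results of these data known. Every probe that the platform annotation gives to one of these 10 symbols was taken, which made 11 of the 25697 probes on the array. Total RNA came from the whole gastrocnemius, a calf muscle, of untreated male C57BL/6 mice, each measured once on its own Illumina MouseRef-8 bead array. The young group held 5 mice of 5 months, the middle-aged group 5 mice of 17 months and the old group 5 mice of 28 months. Each mouse gave muscle at a single age, so the ages are compared between mice and not within them. All animals were males of 1 inbred strain, and neither a second strain nor females were measured.

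Toll-like receptors recognise molecules of microbes and of damaged cells. Most of them signal through the adaptor Myd88 to a chain of kinases and ubiquitin ligases, which ends in the degradation of IkB proteins and frees dimers of the Rel family to enter the nucleus. Those dimers switch on inflammatory genes and also the pathway's own inhibitors, Nfkbia and Tnfaip3, and in muscle both fibres and resident macrophages are known to carry the pathway.

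The promoters of 3 of these genes are shown because Tlr2 was the gene that rose with age and because Nfkbia and Tnfaip3 are textbook targets of the factor they restrain. The windows run from 250 bases before to 50 bases after a RefSeq transcription start on mouse GRCm38.p6, written 5′ to 3′ on the gene's own strand, and capitals mark matches on either strand to the kappaB consensus, the letters that NF-kB dimers bind. The windows lie at chr3:83841559-83841858, chr12:55492598-55492897 and chr10:19015361-19015660, all on the minus strand of the build.
Tlr2: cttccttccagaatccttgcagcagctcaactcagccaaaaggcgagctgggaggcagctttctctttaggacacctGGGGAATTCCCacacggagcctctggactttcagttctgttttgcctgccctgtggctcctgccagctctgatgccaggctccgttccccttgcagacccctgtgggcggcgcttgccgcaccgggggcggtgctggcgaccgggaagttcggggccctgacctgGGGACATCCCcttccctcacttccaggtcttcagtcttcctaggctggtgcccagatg
Nfkbia: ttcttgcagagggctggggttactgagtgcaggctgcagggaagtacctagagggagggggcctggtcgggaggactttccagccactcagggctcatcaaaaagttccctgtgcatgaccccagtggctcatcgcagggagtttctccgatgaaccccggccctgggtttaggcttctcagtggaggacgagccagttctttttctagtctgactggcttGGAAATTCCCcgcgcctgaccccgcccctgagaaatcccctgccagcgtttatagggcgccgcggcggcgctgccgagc
Tnfaip3: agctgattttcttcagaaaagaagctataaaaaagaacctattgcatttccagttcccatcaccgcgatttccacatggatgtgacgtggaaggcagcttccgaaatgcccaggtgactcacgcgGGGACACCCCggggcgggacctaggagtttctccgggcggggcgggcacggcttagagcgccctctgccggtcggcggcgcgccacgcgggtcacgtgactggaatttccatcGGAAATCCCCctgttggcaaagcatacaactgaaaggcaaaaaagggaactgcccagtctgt
Counted from the start, where -1 is the last base before it, the matches in the Tlr2 window began at -173, -172 and -8, the first pair overlapping. The Nfkbia window had its match at -29 and the Tnfaip3 window shown had matches at -125 and -12, while a second window of Tnfaip3, at another start, had 0. RefSeq gave no window for Tlr4 and Relb, and Cd14 was left out of the counts. Counted were 7 of the 10 genes, with 10 windows in all. Of the genes, Tlr2, Tlr3, Nfkb2, Nfkbia and Tnfaip3 had a match, which is 5 of those 7 genes and 7 of the 10 windows. The windows of Myd88 and Rela had 0. Overlapping windows of Nfkb2 shared a match, which was counted in each. No match was found for Cd14, so these shares would be lower with it counted. Of all 32851 promoter windows of the same length, 8.5% held a match. A match describes the letters and does not show that a factor bound there.

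Between 11534 and 12593 probes were detected on an array, detection meaning that the chance of such a signal from background beads (the detection p) was under 0.05, and the median raw intensity of an array lay between 74.7 and 93.8. Values below are background-corrected, quantile-normalised intensities on the log2 scale, and a level is compared only with levels of the same probe. The depth of a sequencing library has no counterpart here, and the number of arrays limits the precision. All 12 muscle fibre markers named on the array were detected on 15 of 15 arrays, while 0 of 12 named T, B and NK cell markers were detected on 5 or more arrays, the minimum for testing. The tested set held 9470 features, and 9 of the 10 genes were in it.

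Detection differed between the genes. The probes of Tlr2, Cd14, Myd88, Nfkbia, Rela, Relb and Tnfaip3 were detected on all 15 arrays. Of the 2 Tlr4 probes, 1 was detected on 13 arrays (4 young, 4 middle-aged and 5 old) and the other on 0, and Nfkb2 was detected on 9. The single Tlr3 probe was detected on 0 arrays. Where a gene was only partly detected, its normalised level in the undetected arrays is near background and understates differences.

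**Figure D1:**
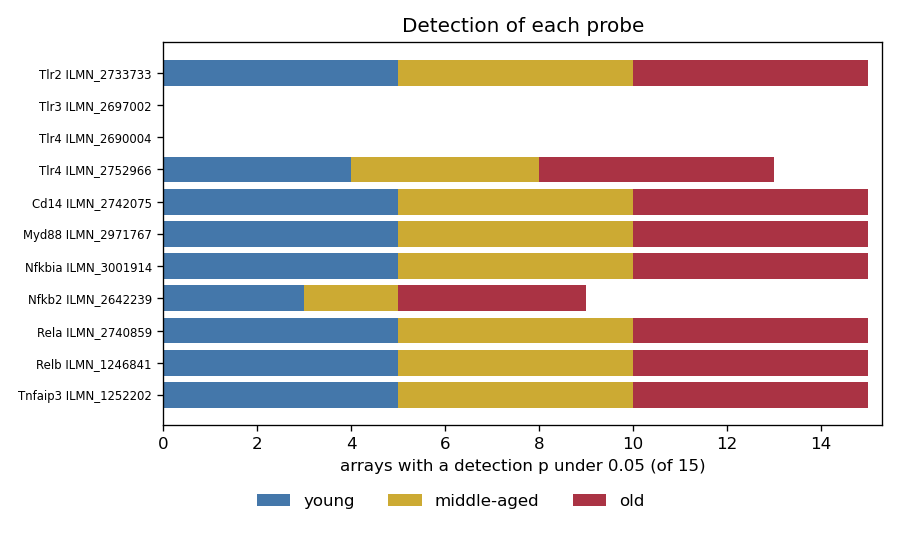
Number of arrays, of 15, on which each of the 11 probes was detected (detection p under 0.05), with the bar split into young, middle-aged and old mice. The Tlr3 probe and 1 of the 2 Tlr4 probes have no bar because they were detected on 0 of 15 arrays.

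Among the receptors, Tlr2, which recognises bacterial lipoproteins, was higher in old muscle than in young. The young arrays gave 5.42, 5.68, 5.74, 5.79 and 5.62, the middle-aged arrays 6.10, 5.61, 6.03, 5.66 and 6.09, and the old arrays 7.08, 6.29, 6.12, 6.75 and 6.13, in the order of replicates 1 to 5. Every old array lay above every array of the other ages, old replicates 1 and 4 furthest, while the middle-aged arrays formed a lower pair inside the young range and 3 above it. The rise from young to old was 0.82 ± 0.18 on the log2 scale (SE, n = 5 per group), with a 95% confidence interval from 0.45 to 1.20, which is 1.77-fold (limma, adjusted p = 0.017). Tlr2 was the 1 of the 9 tested genes to pass the threshold, an adjusted p under 0.05, against 3.31% of all features in either direction and 1.72% upward. The F test over the 3 ages also called it alone among the 9 (adjusted p = 0.0472), where 1.69% of all features were called, and this call was lost under 10 other settings and without any 1 of 12 arrays. From middle age to old age Tlr2 differed by 0.58 ± 0.18 (adjusted p = 0.21) without overlap of the groups, and from young to middle age by 0.25 ± 0.18 (adjusted p = 1), with overlap. The difference between the later and the earlier step was 0.33 ± 0.31 (adjusted p = 0.973), so the steps were not shown to differ in size. The call against young was lost without old replicate 4 (0.75, adjusted p = 0.0509 by limma) and under the methods' t-test after Benjamini-Hochberg adjustment, and the difference was 0.44 without background correction (adjusted p = 0.0217).

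Macrophage genes moved with Tlr2. Of 13 macrophage and monocyte markers tested, 6 rose from young to old and 0 fell, where 1.72% of all features rose. All 13 had estimates above 0, beside 46.8% of all features, and their median difference was 0.81 on the log2 scale. Ctss, 1 of the 13, was detected on 6 of 15 arrays, with means of 4.64 on young and 5.06 on old arrays. It may have passed the filter through the old group, so its estimate is no independent support. Their summed linear intensity ranged from 1658 to 2483 on young, from 2021 to 3208 on middle-aged and from 3024 to 5401 on old arrays, highest on old replicate 1, as Tlr2 was. Lyz2, the lysozyme of macrophages, was 1.16 ± 0.22 higher in old muscle (adjusted p = 0.00713), and Adgre1, the F4/80 antigen, was 0.87 ± 0.22 higher (adjusted p = 0.0406). In a limma fit of every probe past the filter, another Lyz2 probe gave 0.75 and was not called (adjusted p = 0.186). Another Adgre1 probe gave 0.75 and was called (adjusted p = 0.0268). The defining markers Itgam, Fcgr1, Msr1 and Ccr2 were detected on 0 of 15 arrays. The part of macrophages in the Tlr2 result was not tested, and in RNA of a whole muscle more cells of a type and more RNA per cell cannot be told apart. Among neutrophil markers 1 of the 4 tested rose, S100a8, while the list's median was -0.05, with 2 estimates above 0. Among fibroblast markers 2 of 8 fell, both collagen genes, with a median of -0.38 and 2 estimates above 0. Of all features 3.31% were called in either direction. Of 4 fat cell markers tested 0 were called, with 3 estimates above 0 and a median of 0.84, and their summed intensity ranged from 300.2 to 525 on young, from 465 to 3054 on middle-aged and from 341 to 1734 on old arrays, an overlap of all ages. The part of these cell types in the Tlr2 result was not tested.

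**Figure D2:**
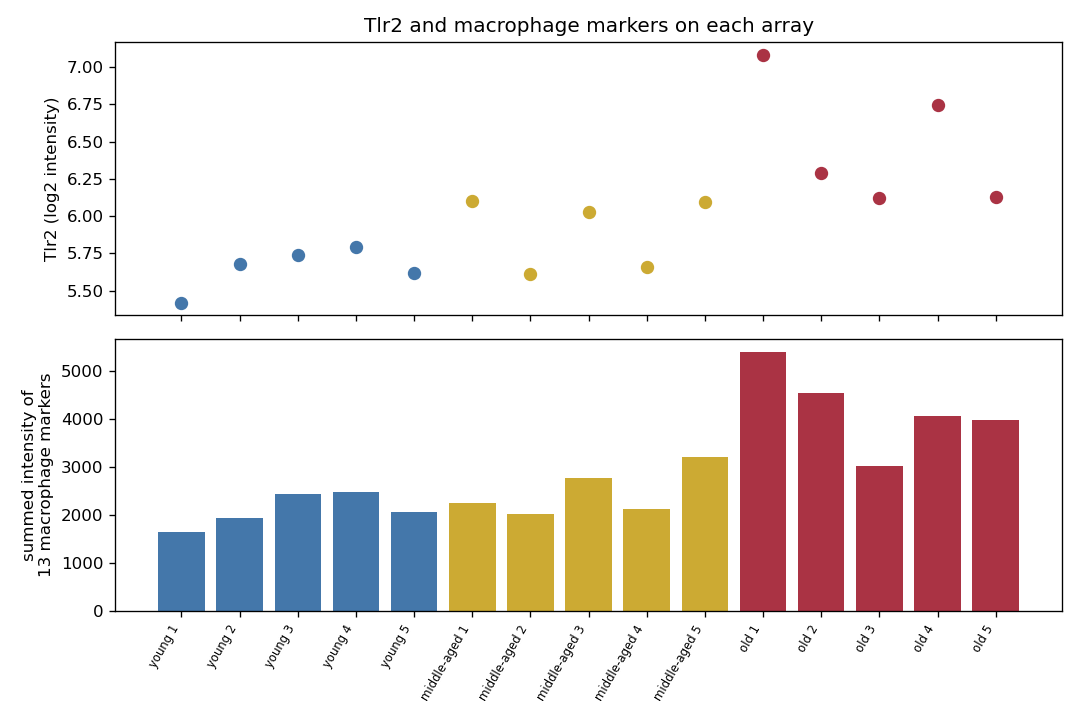
Upper panel, normalised Tlr2 intensity (log2) on each of the 15 arrays; lower panel, the summed linear intensity of 13 macrophage markers on the same arrays, with bars from 0. Old replicate 1 is highest in both, at 7.08 and 5401, and old replicate 3 is lowest of the old arrays in both, at 6.12 and 3024. Old replicate 5 is almost level with it in Tlr2, at 6.13, but has a sum of 3973.

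Tlr4, the receptor for bacterial lipopolysaccharide, showed a difference of like size with a wider spread. Its detected probe gave 4.66, 5.33, 5.45, 5.77 and 5.37 on young, 5.56, 4.89, 5.35, 5.51 and 5.94 on middle-aged and 6.00, 6.12, 6.99, 6.14 and 5.50 on old arrays. Old replicates 1 to 4 lay above all young and middle-aged arrays, and old replicate 5 lay inside both ranges, so the groups overlapped. Old and young differed by 0.84 ± 0.25 (95% confidence interval 0.32 to 1.35), which did not pass the threshold (adjusted p = 0.071), and old and middle-aged muscle by 0.70 ± 0.25 (adjusted p = 0.256). The value against young was 0.41 without background correction (adjusted p = 0.0746), 0.63 without old replicate 3 and 0.99 without old replicate 5, and without the latter alone among the arrays it passed (adjusted p = 0.0168). Old replicate 3 thus held the highest Tlr4 and the lowest Tlr2 of the old arrays, the latter almost level with old replicate 5 (6.12 and 6.13). The other Tlr4 probe, annotated to the same transcript, gave 0.02 ± 0.05 between old and young with signal at background on every array.

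Tlr3, the endosomal receptor for double-stranded RNA, was not detected at any age. Its raw intensities ran from 65.6 to 83.0 over the 15 arrays, with detection p-values from 0.13 to 0.787. An array cannot show from this that the transcript was missing, and it entered no test. Tlr7, an endosomal receptor for single-stranded RNA, was the 1 of 7 other Toll-like receptors named on the array that passed the filter, and old and young muscle differed by 0.34 ± 0.16 (adjusted p = 0.266). Tlr1, Tlr11 and Tlr12 were detected on 0 arrays, Tlr8 on 1, Tlr13 on 3 and Tlr6, a partner of Tlr2, on 4. Tlr5 and Tlr9 had no named probe.

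Cd14 passes lipopolysaccharide on to Tlr4 and its partner Ly96. It read 5.25, 5.95, 5.51, 5.49 and 5.33 on young, 5.65, 5.40, 5.38, 5.25 and 5.62 on middle-aged and 6.37, 5.72, 5.17, 5.90 and 5.76 on old arrays. The ages overlapped, and the old group held both the highest array, replicate 1, and the lowest, replicate 3. Old minus young was 0.28 ± 0.18 (95% confidence interval -0.11 to 0.66, adjusted p = 0.435) and old minus middle-aged 0.33 ± 0.18 (adjusted p = 0.485). Against young it was 0.13 without old replicate 1, 0.43 without old replicate 3 and 0.13 without background correction. Ly96 itself differed by 0.45 ± 0.18 between old and young (adjusted p = 0.182), and old replicate 3 was again the lowest old array, at 5.46 against 6.13 to 6.39 on the others. Of 8 other co-receptors and adaptors 5 were tested and 0 passed in any comparison, and Unc93b1, which carries endosomal receptors to their compartment, gave 0.28 ± 0.24 (adjusted p = 0.556).

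Myd88 is the adaptor through which Tlr2 and Tlr4 signal. Its levels were 8.27, 8.43, 8.26, 8.24 and 8.25 on young, 8.18, 8.17, 8.15, 8.20 and 8.77 on middle-aged and 9.13, 8.59, 8.52, 8.34 and 8.54 on old arrays. Apart from old replicate 4, the old arrays lay above all young arrays, and middle-aged replicate 5 stood inside the old range. Old exceeded young by 0.33 ± 0.15 (95% confidence interval 0.02 to 0.65, adjusted p = 0.239) and middle-aged by 0.33 ± 0.15 (adjusted p = 0.395), and neither passed the threshold. Against young the difference was 0.21 without old replicate 1. Middle-aged and young muscle differed by 0.01 ± 0.15.

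**Figure D3:**
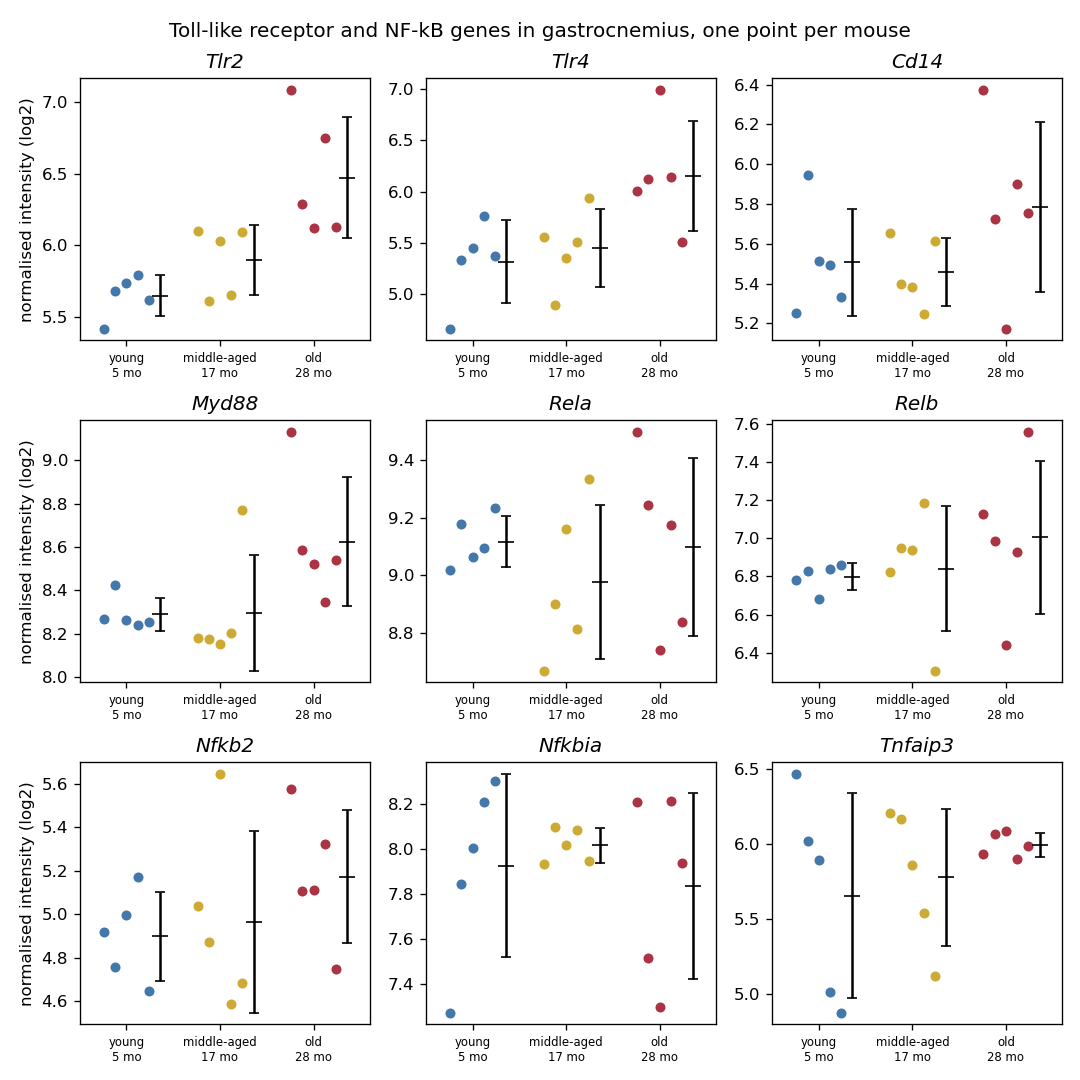
Normalised intensity (log2) of the 9 tested genes, one point per mouse in the order of replicates 1 to 5, with the mean and SD of the 5 mice beside each group; axes differ between genes. In Tlr2 the 5 old mice (6.12 to 7.08) lie above all others, and in Tnfaip3 the old mice (5.90 to 6.08) sit inside the young range (4.87 to 6.47).

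The kinases and ubiquitin ligases between the adaptor and the Rel proteins were detected throughout: 18 of 22 had a named probe, and all 18 were detected on every array. Of these 0 rose and 1 fell from young to old, 1 of 18 beside 3.31% of all features called in either direction. Tab2, an adaptor that ties the kinase Map3k7 to ubiquitin chains, gave 11.50, 11.41, 11.57, 11.49 and 11.65 on young and 10.79, 10.68, 11.22, 10.75 and 11.44 on old arrays. Old replicate 5 lay among the young arrays and the other 4 old arrays lay below them all. The difference was -0.55 ± 0.14 (adjusted p = 0.0414) and was no longer called under 17 of 30 alternatives. The list's median difference was 0.06, against -0.02 over all features.

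Rela, the p65 subunit that carries most inducible NF-kB activity, showed small differences between the ages. It read 9.02, 9.18, 9.06, 9.09 and 9.23 on young, 8.67, 8.90, 9.16, 8.82 and 9.33 on middle-aged and 9.50, 9.24, 8.74, 9.17 and 8.84 on old arrays. The groups overlapped, and the young range lay inside the other 2. Old minus young was -0.02 ± 0.15 (95% confidence interval -0.34 to 0.30, adjusted p = 0.963), old minus middle-aged 0.12 ± 0.15 and middle-aged minus young -0.14 ± 0.15.

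Relb and Nfkb2 form the dimer of the slower, non-canonical branch, Nfkb2 as the precursor that is cut to its active form. Relb gave 6.78, 6.83, 6.68, 6.84 and 6.86 on young, 6.82, 6.95, 6.94, 7.19 and 6.31 on middle-aged and 7.12, 6.98, 6.44, 6.93 and 7.55 on old arrays. The young arrays lay close together, and old replicate 5 and middle-aged replicate 5 were the highest and the lowest of all. Old minus young was 0.21 ± 0.18 (95% confidence interval -0.18 to 0.59, adjusted p = 0.581), and it was 0.07 without old replicate 5 and 0.35 without old replicate 3. Nfkb2, detected on 3 young, 2 middle-aged and 4 old arrays, gave 4.92, 4.76, 5.00, 5.17 and 4.65 on young, 5.04, 4.87, 5.64, 4.59 and 4.68 on middle-aged and 5.58, 5.11, 5.11, 5.32 and 4.75 on old arrays. Its ages overlapped, and old minus young was 0.27 ± 0.19 (95% confidence interval -0.12 to 0.66, adjusted p = 0.448), 0.17 without old replicate 1 and 0.11 without background correction. Of the other Rel and IkB genes, Nfkbiz and Nfkbib were tested and differed by 0.24 ± 0.20 (adjusted p = 0.538) and 0.03 ± 0.16 (adjusted p = 0.949). Rel and Bcl3 were detected on 4 arrays, Nfkbie on 3 and Nfkbid on 0, and Nfkb1, the usual partner of Rela, had no named probe.

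Nfkbia encodes IkBalpha, which holds Rel dimers in the cytoplasm and is itself induced by them. Its levels were 7.28, 7.84, 8.0, 8.21 and 8.30 on young, 7.93, 8.10, 8.02, 8.08 and 7.95 on middle-aged and 8.21, 7.52, 7.30, 8.21 and 7.94 on old arrays. The young and old groups spanned nearly the same range and the middle-aged arrays lay between 7.93 and 8.10. Old minus young was -0.09 ± 0.20 (95% confidence interval -0.51 to 0.32, adjusted p = 0.846), and the sign turned with array weights (0.0484).

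Tnfaip3 encodes A20, an enzyme that edits ubiquitin chains and shuts the pathway off. It read 6.47, 6.02, 5.90, 5.01 and 4.87 on young, 6.21, 6.17, 5.86, 5.54 and 5.12 on middle-aged and 5.94, 6.07, 6.08, 5.90 and 5.99 on old arrays. The old arrays fell within a narrow band inside the young range, and the mean difference of 0.34 ± 0.26 came with a confidence interval from -0.21 to 0.89 (adjusted p = 0.511). It was 0.15 without young replicate 5, 0.18 without young replicate 4, 0.54 without young replicate 1 and 0.14 without background correction. Its SD was 0.68 in young, 0.46 in middle-aged and 0.08 in old mice. The SD was largest in old mice for 7 of the 9 genes, and the median SD over the 9 was 0.20, 0.27 and 0.40 from young to old, beside 0.17, 0.21 and 0.30 over all features. The spreads were not tested.

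Taking the 9 genes as a set of counts, 7 estimates lay above 0 for old against young, where 46.8% of all features did, with a median of 0.28 against -0.02. At an unadjusted p under 0.05 there were 3 (Tlr2, Tlr4 and Myd88), beside 18.9% of all features, and 1 gene had groups that did not overlap, beside 4.67%. For old against middle-aged muscle, 0 of 9 were called (0.317% of all features), 3 had an unadjusted p under 0.05 (12.2%), 8 estimates lay above 0 (46.5%), 1 gene did not overlap (1.5%) and the median was 0.22. For middle-aged against young muscle 0 were called (0.0106%), 0 had an unadjusted p under 0.05 (5.07%), 7 estimates lay above 0 (49.4%), 0 genes had groups that did not overlap (2.46%) and the median was 0.07. The comparison of the later with the earlier step called 0 of 9 (0.0211%), with 0 at an unadjusted p under 0.05 (4.56%) and 8 estimates above 0 (47.6%). These comparisons share arrays, and the genes were chosen with earlier results of these data known, so the shares are no independent support. Old replicate 1 was the highest of the 15 arrays for 4 of the 9 genes and among the top 3 for 6, and old replicate 4 was among the top 3 for 5.

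**Figure D4:**
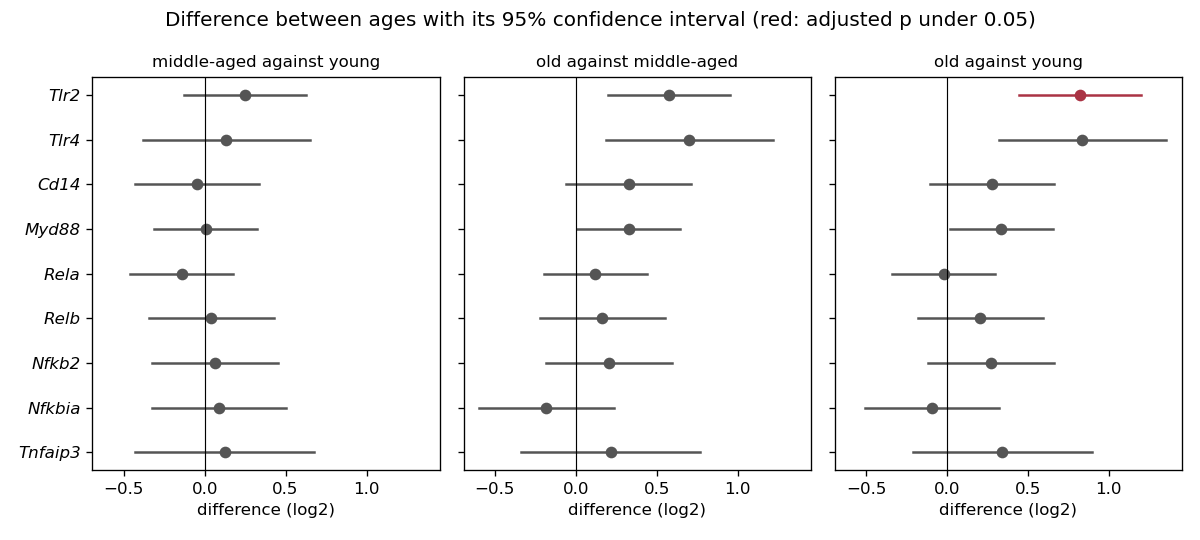
Difference between ages (log2) of the 9 tested genes in 3 comparisons, each with its 95% confidence interval; red marks an adjusted p under 0.05 over all features. Tlr2 in old against young mice (0.82, interval 0.45 to 1.20) is the 1 red point, and the interval for Tlr4 (0.32 to 1.35) is also above 0.

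Beyond the 10 genes, 94 others of the pathway were listed by role, of which 85 had a named probe and 53 were tested. The lists, too, were made with earlier results of these data known. From young to old 3 rose and 1 fell, which is 7.55% of those tested beside 3.31% of all features. Of the 3, Cxcl10 reached the detection minimum only through the old group, where it was high, so this share is no independent support. The median difference of those tested was 0.09. For old against middle-aged muscle 0 of 53 were called (0.317% of all features), and for middle-aged against young 0 (0.0106%).

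The genes that rose were 2 of the 9 tested brakes on the pathway and 1 of the 14 tested NF-kB targets, the said Cxcl10, beside 1.72% of all features that rose. Tnip2, a binding partner of A20, gave 5.46, 5.53, 5.32, 5.44 and 5.18 on young and 6.25, 6.19, 5.97, 5.78 and 5.79 on old arrays. The groups did not overlap, and the rise was 0.61 ± 0.13 (adjusted p = 0.0137). Tax1bp1, which brings A20 to its substrates and also serves as an autophagy receptor, gave 10.29, 10.29, 10.42, 10.16 and 10.09 on young and 10.63, 10.99, 11.43, 11.16 and 10.60 on old arrays. Here too each old array exceeded each young one, by 0.71 ± 0.16 on average (adjusted p = 0.0181). The call for Tax1bp1 was lost under 5 of 30 alternatives: with median scaling (0.63, adjusted p = 0.185), without young replicate 5 (0.67, 0.057), without old replicate 4 (0.66, 0.0562), without young replicate 4 and middle-aged replicate 2 (0.69, 0.0685), and under the methods' t-test after Benjamini-Hochberg adjustment. The call for Tnip2 was lost under 3, namely without a detection filter (0.61, adjusted p = 0.0568) and in both readings of the methods' t-test, and its difference was 0.28 without background correction (adjusted p = 0.0169). The deubiquitinase Cyld was higher on each old array than on any young one, 9.57 to 10.87 against 9.08 to 9.38, but 0.67 ± 0.19 did not pass (adjusted p = 0.0579). Cyld passed under 4 of 30 alternatives. Among them were the fits without old replicate 3, its highest array, where the difference was 0.43, and without old replicate 5 (0.76). The median over the 9 brakes was 0.30, with 5 estimates above 0.

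Cxcl10, a chemokine induced by interferons and by NF-kB, gave 4.34, 4.91, 4.51, 4.64 and 4.69 on young, 4.59, 5.29, 4.54, 4.51 and 4.88 on middle-aged and 5.99, 5.33, 5.20, 5.54 and 5.76 on old arrays. It was detected on 0 young, 2 middle-aged and 5 old arrays, so it reached the detection minimum only through the old group, where it was high, and its call is no independent support for a rise of the targets. Against the lowest detected signal of the young arrays it was at least 1.60-fold higher in old muscle (fitted difference 0.94 ± 0.17, adjusted p = 0.00472). The fitted difference was 0.41 without background correction (adjusted p = 0.0078), and of 29 alternatives the 2 readings of the methods' t-test did not call it. The bound takes, on each young array, the higher of the lowest normalised level among detected probes and the Cxcl10 probe's own. Ier3, an early response gene, differed by 0.40 ± 0.18 (adjusted p = 0.237) and Nuak2 by -0.41 ± 0.22 (adjusted p = 0.322). Over the 14 tested targets the median was 0.09, with 9 estimates above 0, beside 46.8% of all features. Of 30 targets listed, 29 had a named probe, and 9 of these were detected on 0 arrays, among them Tnf, Il10, Ccl2 and Ptgs2, while Il1b and Il6 were each detected on 1. Among 5 factors of the interferon branch 4 were tested and 0 were called, with Irf1 at 0.50 ± 0.18 (adjusted p = 0.145) and Irf5 at -0.19 ± 0.15 (adjusted p = 0.513).

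**Figure D5:**
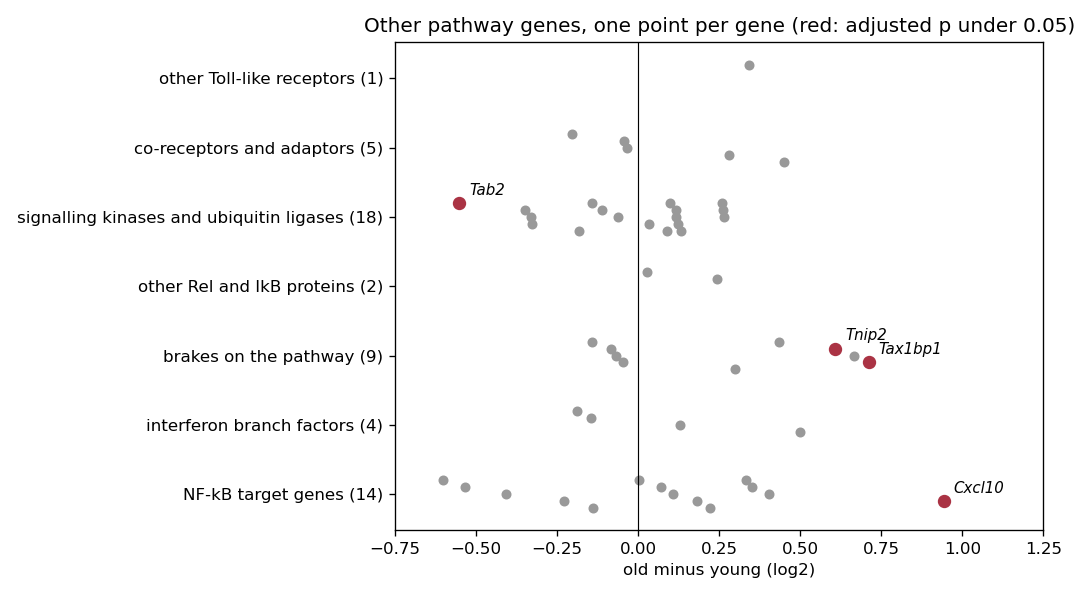
Difference between old and young mice (log2) of the 53 other pathway genes tested, one point per gene, in rows by role with the number tested in brackets; red marks an adjusted p under 0.05. Tnip2 (0.61), Tax1bp1 (0.71) and Cxcl10 (0.94) rose and Tab2 (-0.55) fell.

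The named genes whose profile over the 15 arrays was most like each of the 9 were found by Pearson's r on the log2 values. The 15 arrays include the 3 ages, so a shared difference between ages raises r, and no test was run. For Tlr2 they were Mtor (r = 0.93, Spearman's rho 0.83), Xdh (0.92, rho 0.82) and Lyz2 (0.91, rho 0.93). Lyz2 read 8.23, 8.63, 9.08, 9.13 and 8.59 on young, 8.94, 8.71, 9.20, 8.90 and 9.73 on middle-aged and 10.53, 9.85, 9.33, 9.85 and 9.88 on old arrays. It was highest on old replicate 1 and lowest on young replicate 1, as Tlr2 was. For Tlr4 the closest were Nop56 (0.93, rho 0.93), Pdk1 (0.92, rho 0.85) and Pdlim5 (0.90, rho 0.77), and for Cd14 Fam174c (0.85, rho 0.81), the class II gene H2-Ab1 (0.85, rho 0.77) and Plcg2 (0.83, rho 0.87). For Tnfaip3 they were Tril (0.87, rho 0.65), St8sia4 (0.85, rho 0.83) and Rnf144a (0.84, rho 0.68). The closest gene was Mindy1 for Myd88 (0.89), Fbrsl1 for Rela (0.93), Tcf25 for Relb (0.92), Tmem115 for Nfkbia (0.84) and Terf2ip for Nfkb2 (0.75).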

How the data were processed

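The authors deposited raw intensity values and detection p-values per probe and array, read with GenomeStudio 2011.1, without background subtraction or normalisation. The authors also deposited a score, the Z score of the natural log of intensity, which recomputation matched within 0.000924. Intensities were background-corrected and quantile-normalised with neqc of limma 3.58.1 (R 4.3.3, offset 16). A probe entered the tests if detected (p under 0.05) on 5 or more of the 15 arrays, and each gene was represented by its brightest such probe. A linear model with a mean per age (lmFit, eBayes with trend) gave two-sided tests, with Benjamini-Hochberg adjustment over 9470 features, and was tested on simulated data. The members and gene lists were chosen with earlier results of these data known. Text names every member, called list genes (with a few uncalled ones beside them) or the 2 lowest p, and the 3 most correlated genes. Other corrections, scalings, filters and designs, left-out arrays and the methods' t-test were alternatives. Separate mice were taken as replicates. The RefSeq table gave names and promoters.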

Additional observations from a re-analysis of the deposited data

Results flagged for a closer look

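In Myd88, 1 array of a group stood apart from the other 4 by more than Dixon's 95% critical value for 5 samples, 0.71, in both of the younger groups. In young mice the gap made up 0.858 of the group's range, with young replicate 2 at 8.43 and the next array at 8.27 on the log2 scale. In middle-aged mice it made up 0.915, with middle-aged replicate 5 at 8.77 and the next at 8.20. Chance alone marks about 1 in 20 groups, and 33 groups of the members' probes were examined.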

How the results depend on the processing

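Over 30 alternatives, Tlr2 was higher in old than in young muscle in each and lost its call in 3, without old replicate 4 and in both readings of the methods' t-test. Members called for old against young were then 0 in place of 1, at the methods' thresholds and with Benjamini-Hochberg. The methods' t-test took every probe, without a detection filter. The methods' Z ratio is the difference in Z score divided by a standard deviation, with a threshold of 1.5. Tlr2 (2.61) and Tlr4 (2.37) met the methods' cut-offs for the Z ratio and for unadjusted p. Both failed only the rule that average intensity exceed 0, with average Z scores of -0.13 and -0.23. Without single arrays the number of members called by limma ran from 0 to 2. With array weights Tlr2 was also called against middle-aged muscle (0.83, adjusted p = 0.0103), which made 1 member in place of 0. The F test called 0 members in place of 1 with no background correction, normexp with an offset of 50, median scaling, Z scores, deposited scores, no detection filter, detection on all 15 arrays, every probe, the replicate block, and without young replicate 4 and middle-aged replicate 2 (the arrays whose intensities carry 2 decimals), and between 0 and 2 without single arrays. With median scaling 0 members, in place of 1, had old and middle-aged groups apart. Nfkbia and Rela, near 0, turned sign with array weights (0.0484 and 0.0986) and without single arrays (-0.253 to 0.0419 and -0.119 to 0.0696).

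Features called for old against young (313) were 136 with median scaling, 178 with only the 2 groups, 870 with array weights, 946 and 3 by the methods' t-test at its thresholds and with Benjamini-Hochberg, 148 without young replicate 4 and middle-aged replicate 2, and 152 to 710 without single arrays. For old against middle-aged (30) they were 16 with detection on all 15 arrays, 15 with the 2 groups, 468 with weights, 469 and 0 by the t-test, 19 without those 2 arrays, and 15 to 306 without single arrays. For middle-aged against young (1) they were 2 with every probe, 2 with the replicate block, 17 with the 2 groups, 77 with weights, 541 and 0 by the t-test, 0 without those 2 arrays, and 1 to 8 without single arrays. For the later against the earlier step (2) they were 5 with no background correction, with normexp, with Z scores and with deposited scores, 1 with detection on all 15 arrays, 16 with weights, 1 without those 2 arrays, and 0 to 8 without single arrays. By the F test (160) they were 84 with median scaling, 102 with detection on all 15 arrays, 95 with the replicate block, 792 with weights, 70 without those 2 arrays, and 78 to 508 without single arrays. The cause was not tested.

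Replicate numbers do not pair the mice, since each mouse gave muscle at a single age. Deviations of same-numbered arrays correlated between -0.50 and 0.40. Arrays of different numbers were not compared, so a batch shared by number was not tested. With the number as a block the call for Tlr2 held (adjusted p = 0.0402).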
